A study of Mus musculus with 4 samples.

Results

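Alveolar type 1 cell genes were followed in lung tumours of KP mice with and without CD109. The 8 genes were Ager, Hopx, Pdpn, Aqp5, Rtkn2, Clic5, Cav1 and Emp2, taken as a fixed set of names, and all 15 array probes whose transcript accession belongs to them were read. They stood among 16443 genes that could be tested and 23787 genes with a named probe. KP mice are a model of lung adenocarcinoma that Cre recombinase sets off, and tumours had been started by adenoviral Cre given into the trachea 88 to 92 days before RNA extraction. All mice were labelled C57BL/6J, and no age is given in the labels. Both CD109+/+ samples were labelled female. Of the CD109-/- samples, replicate 1 was labelled male and replicate 2 female. Each RNA sample was run on a single Agilent array in 1 colour. Pooling of tumours and the amount of surrounding lung are not described in the labels. They also do not state that the replicates are different animals, and the p-values then cover only the spread among the 4 samples, which may be technical.

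Alveolar type 1 cells are the very thin, broad cells that cover most of the gas-exchange surface and share a basement membrane with the capillaries. Lung adenocarcinoma of this kind is thought to start mainly in alveolar type 2 cells, the cuboidal surfactant makers. During repair, type 1 cells can arise from type 2 cells. In that step cells pass through a transitional state rich in keratin 8, and YAP, TAZ and TEAD factors together with NKX2-1 are known to switch on type 1 genes. The 8 genes cover the cell's main features. Ager encodes RAGE, a receptor that type 1 cells hold at their basal side. Hopx encodes a small homeodomain protein without DNA contact of its own, Pdpn the surface mucin podoplanin (T1-alpha), Aqp5 an apical water channel, Rtkn2 an intracellular signalling protein, Clic5 a protein linking membrane and actin cytoskeleton, Cav1 the coat protein of caveolae and Emp2 a tetraspan membrane protein. Pdpn is also made by lymphatic endothelium, mesothelium and fibroblasts, and Cav1 by endothelium and fibroblasts. In bulk tumour RNA, fewer cells of a type and less RNA per cell cannot be told apart.

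Signals are given as log2 of the processed spot signal relative to the 75th percentile of that array, so 0 is the 75th percentile and 1 unit is a doubling. Differences are CD109-/- minus CD109+/+. Per array, 64.3% to 67.0% of spots exceeded background clearly by the scanner's own test ("well above background"), and 0 were saturated. The targeted gene, Cd109, had log2 signals of -3.70 and -4.66 on the CD109+/+ arrays and -7.98 and -7.87 in CD109-/- tumours, where neither spot was well above background. The number of arrays limits every value here, since 2 against 2 cannot give a p below 0.333 in an exact two-sided permutation test. All 15 probes of the 8 genes were well above background on all 4 arrays, so these transcripts, whatever cells made them, were measured in every sample.

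The sequence just upstream of the transcription start is shown for the 4 genes whose 250-base window overlaps no annotated gene, since they include genes that did and did not separate the arrays below. The windows are from RefSeq on GRCm38.p6, which holds 9 windows for 7 of the 8 genes. They lie at chr5:77115124-77115373, minus strand (Hopx), chr4:143299565-143299814, minus strand (Pdpn), chr6:17306085-17306334, plus strand (Cav1) and chr16:10313969-10314218, minus strand (Emp2). Capitals mark letter matches on either strand. For the NKX2-1 site the letters were CTCAAG. For the CCAAT box they were the CCAAT letters themselves. The GC box was searched as GGGCGG, and the TATA box as TATAAA. No matches overlap in the windows shown.
Hopx: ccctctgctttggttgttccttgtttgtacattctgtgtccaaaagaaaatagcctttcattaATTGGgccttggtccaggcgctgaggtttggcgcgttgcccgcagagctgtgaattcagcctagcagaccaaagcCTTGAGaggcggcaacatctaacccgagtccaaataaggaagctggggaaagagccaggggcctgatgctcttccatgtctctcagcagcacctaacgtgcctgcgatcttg
Pdpn: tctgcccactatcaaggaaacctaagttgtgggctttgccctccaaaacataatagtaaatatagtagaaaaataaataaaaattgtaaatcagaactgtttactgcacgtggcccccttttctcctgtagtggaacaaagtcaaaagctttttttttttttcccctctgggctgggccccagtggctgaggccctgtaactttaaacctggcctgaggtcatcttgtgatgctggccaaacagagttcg
Cav1: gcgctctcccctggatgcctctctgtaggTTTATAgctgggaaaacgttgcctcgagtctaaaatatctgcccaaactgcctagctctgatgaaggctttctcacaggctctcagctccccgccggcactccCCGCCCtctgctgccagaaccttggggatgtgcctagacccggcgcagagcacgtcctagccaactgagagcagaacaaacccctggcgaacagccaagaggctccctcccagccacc
Emp2: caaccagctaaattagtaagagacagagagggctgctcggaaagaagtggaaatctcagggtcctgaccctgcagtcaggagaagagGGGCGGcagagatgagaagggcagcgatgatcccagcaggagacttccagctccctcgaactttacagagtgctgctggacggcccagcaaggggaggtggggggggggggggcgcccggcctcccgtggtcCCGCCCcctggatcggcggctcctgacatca
The TEAD letters GGAATG were found in 0 of the 9 windows, against 12.6% of all 32851 windows in the table. The AP-1 letters TGACTCA were also in 0 of 9, against 4.46% of all. The NKX2-1 letters were found in 1 of 9, a Hopx window (13.3% of all windows), and the CCAAT letters in 3 of 9, the Ager window and both Hopx windows (33.8% of all). GC boxes stood in 4 of 9, those of Aqp5, Clic5, Cav1 and Emp2 (32.7% of all), and the TATA letters in 1, at Cav1 (12.4% of all). The Pdpn window held 0 of these letter groups and was 43.2% G and C, against 78.4% for Aqp5 and a median of 52.4% over all windows. A match is a run of letters and no evidence of binding.

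Receptor and surface genes came first. Ager gave log2 signals of 7.79 and 7.39 on the CD109+/+ arrays and 6.99 and 7.83 on the CD109-/- arrays. The lowest and the highest array were thus both CD109-/-, and the genotypes overlapped. Its difference was -0.17 ± 0.37 (limma's standard error, SE, n = 2 per genotype; adjusted p = 0.941). Pdpn, the mucin-like ligand of the platelet receptor CLEC-2, behaved alike, with 4.32 and 4.25 in CD109+/+ and 3.78 and 4.83 in CD109-/- tumours. The CD109+/+ arrays lay close together and the CD109-/- arrays fell on either side of them. The Pdpn difference was 0.02 ± 0.40 (adjusted p = 0.995), the smallest of the 8. Emp2 gave 4.74 and 4.52 in CD109+/+ and 4.94 and 4.78 in CD109-/- tumours. Both CD109-/- arrays were above both CD109+/+ arrays, by a difference of 0.23 ± 0.22 (adjusted p = 0.855).

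Aqp5, the water channel, gave 6.32 and 5.87 in CD109+/+ and 6.48 and 5.87 in CD109-/- tumours. It split by replicate number and not by genotype, with both replicates 1 above both replicates 2, and differed by 0.08 ± 0.33 (adjusted p = 0.973). Cav1 gave -2.67 and -3.04 in CD109+/+ and -2.31 and -1.97 in CD109-/- tumours, the faintest signals of the 8 genes. The genotypes did not overlap, and the Cav1 difference of 0.71 ± 0.26 was the largest of the 8 (1.64-fold; limma's unadjusted p = 0.0482, adjusted p = 0.669). Its 95% interval from limma ran from 0.01 to 1.41. With normexp background correction the Cav1 difference was 0.48 (limma's unadjusted p = 0.0690). The Cav1 p was 0.0542 without a filter on dim probes. It was 0.0611 with the replicate number as a block, 0.0713 with a mean-variance trend and 0.136 for the mean of both probes. It was 0.0739 without CD109+/+ replicate 1, 0.226 without CD109+/+ replicate 2 and 0.159 without CD109-/- replicate 2. Both Cav1 probes are listed under 1 transcript accession (NM_001243064), and the second probe gave -3.38 and -3.86 against -3.61 and -2.74, an overlap, with a difference of 0.44 ± 0.39 (adjusted p = 0.854 over all probes).

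The intracellular members were Hopx, Rtkn2 and Clic5. Hopx gave 3.03 and 2.29 in CD109+/+ and 2.39 and 3.36 in CD109-/- tumours, with a wide gap inside each genotype and a difference of 0.21 ± 0.46 (adjusted p = 0.942). Rtkn2 gave 1.24 and 1.44 in CD109+/+ and 1.15 and 2.39 in CD109-/- tumours. CD109-/- replicate 2 stood apart as the high array while the other three lay near each other, and the Rtkn2 difference was 0.44 ± 0.46 (adjusted p = 0.871). Clic5 gave 3.57 and 3.30 in CD109+/+ and 3.66 and 4.32 in CD109-/- tumours. Its genotypes did not overlap, though CD109-/- replicate 1 lay just above the CD109+/+ arrays, and the difference was 0.56 ± 0.32 (1.47-fold; adjusted p = 0.752).

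**Figure D1:**
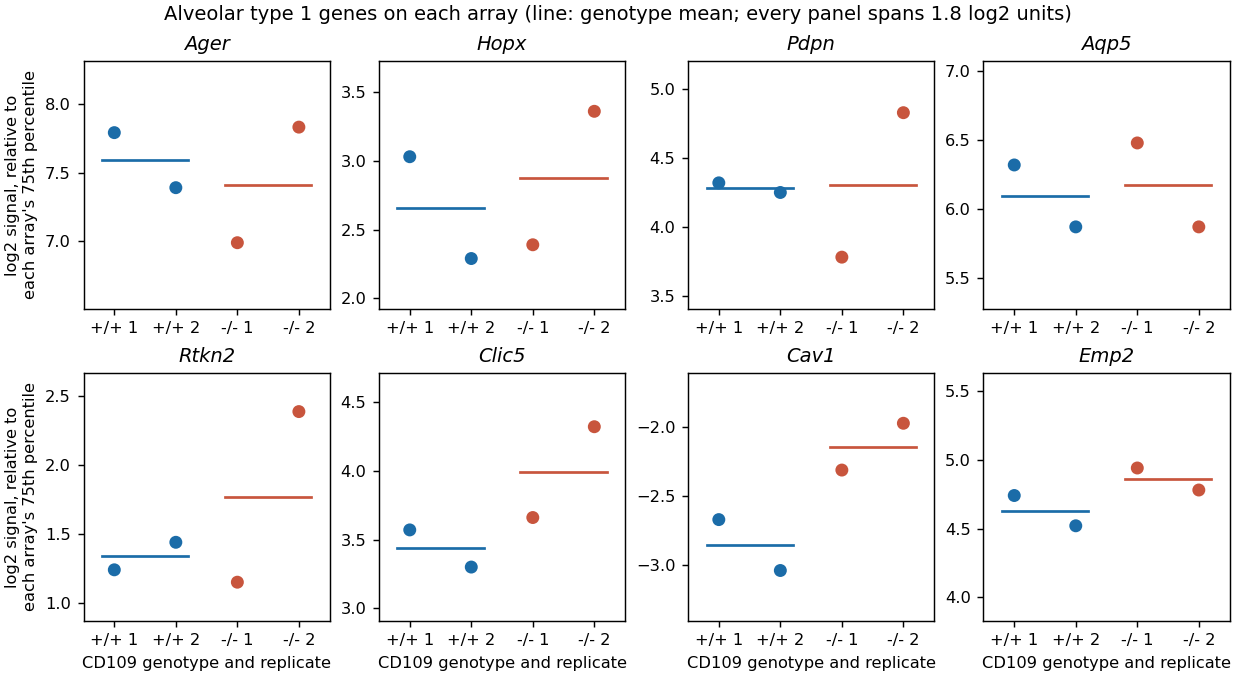
Log2 signal of the 8 alveolar type 1 genes on each array, relative to the 75th percentile of that array, with CD109+/+ in blue, CD109-/- in red and a line at each genotype mean (n = 2). For Ager, Pdpn and Rtkn2 the CD109-/- arrays are the lowest and the highest of the 4, and only for Clic5, Cav1 and Emp2 do both CD109-/- arrays lie above both CD109+/+ arrays.

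Of the 8 genes 0 passed limma's Benjamini-Hochberg threshold of 0.05, as did 0 of all 16443 genes (percent called 0). At an unadjusted p under 0.05, which 7.41% of all genes reached, 1 of the 8 was higher in CD109-/- tumours (Cav1) and 0 were lower, against 5.0% and 2.41% of all genes. In 3 of 8 genes both CD109-/- arrays lay on the same side of both CD109+/+ arrays (38.6% of all genes). All 3, Clic5, Cav1 and Emp2, were higher in CD109-/- tumours, against 20.3% of all genes higher and 18.3% lower. The difference was above 0 in 7 of 8 genes, with a median of 0.22 against 0.00 over all genes. These 7 include Pdpn and Aqp5, whose differences were near 0. The 95% intervals of the 8 genes reached from -1.15 (Ager) to 1.67 (Rtkn2). Those of Hopx, Pdpn, Rtkn2, Clic5 and Cav1 held a doubling, and those of Ager and Pdpn held a halving. With CD109-/- replicate 1 left out, which leaves females only, the median was 0.62 with 7 of 8 above 0. Without CD109-/- replicate 2 it was 0.02, and without CD109+/+ replicate 2 it was 0.05, each with 4 of 8 above 0.

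Of the 15 probes, 1 (Cav1) had an unadjusted p under 0.05, and it was higher in CD109-/- tumours, against 6.81% of all 35769 probes (3.87% higher, 2.94% lower). For 4 of the 15 the genotypes did not overlap (37.7% of all probes), 3 of them higher (16.5%) and 1 lower (21.2%). Of the 5 Ager probes, 4 gave differences from -0.23 to -0.04, and each of these had its lowest value on CD109-/- replicate 1. The remaining Ager probe carries the accession of a noncoding transcript (NR_073173). It gave log2 signals of 0.61 and 0.47 in CD109+/+ and -0.94 and 0.17 in CD109-/- tumours. Here both CD109-/- arrays were below both CD109+/+ arrays, by -0.92 ± 0.42 (limma's adjusted p = 0.757 over all probes and unadjusted p = 0.0794). A test of the difference between this probe and the other Ager probes was not run. The second Aqp5 probe gave 3.99 and 3.42 against 4.47 and 3.46, the same order of the 4 arrays as the first. The second Rtkn2 probe gave -0.46 and -0.38 against -0.79 and 0.53, again with CD109-/- replicate 2 apart from the rest.

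**Figure D2:**
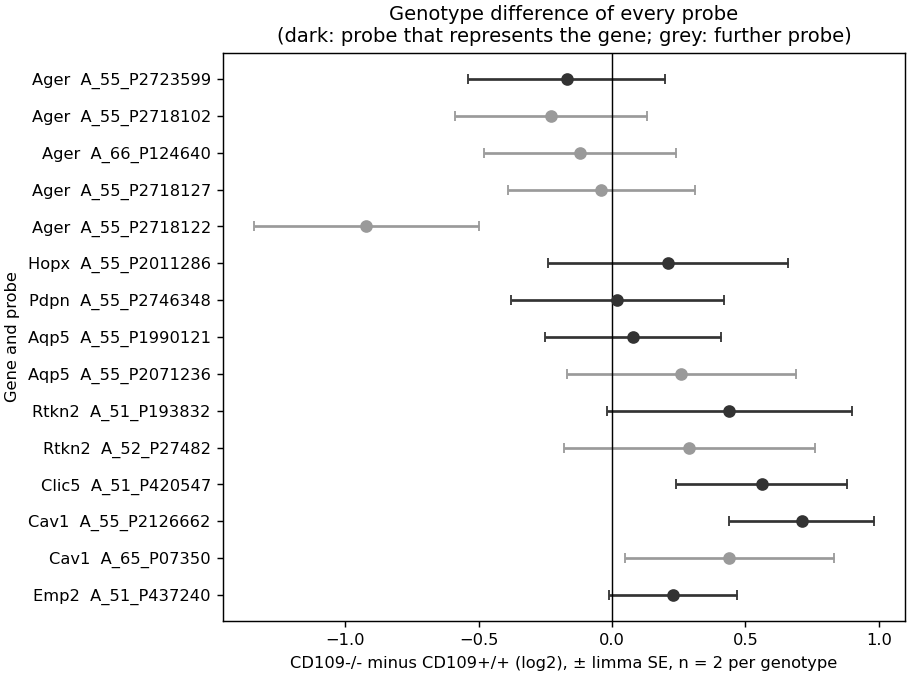
Difference in log2 signal, CD109-/- minus CD109+/+, of each of the 15 probes with limma's SE (n = 2 per genotype), with the probe that stands for each gene in dark and further probes in grey. The differences run from -0.92 (the noncoding Ager transcript) to 0.71 (Cav1), and those of Pdpn and Aqp5 lie within their SE of 0.

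The CD109-/- arrays differed from each other for several of these genes. Replicate 2 exceeded replicate 1 by 1.24 on the log2 scale for Rtkn2, 1.05 for Pdpn, 0.97 for Hopx, 0.84 for Ager, 0.67 for Clic5 and 0.34 for Cav1. On a linear scale these are 2.37-fold for Rtkn2, 2.07-fold for Pdpn, 1.96-fold for Hopx and 1.79-fold for Ager. Aqp5 and Emp2 went the other way, at -0.61 and -0.16. Thus 6 of 8 genes were higher on CD109-/- replicate 2, against 52.5% of all genes, and the median gap was 0.75 against 0.03. Between the CD109+/+ arrays the same genes showed replicate 2 minus replicate 1 values from -0.75 (Hopx) to 0.19 (Rtkn2), with a median of -0.32. Over all genes the middle 90% of the gap between CD109-/- arrays ran from -1.08 to 1.13, so of the 8 only Rtkn2 lay outside it. A gap of at least that size in the same direction was seen in 4.18% of all genes for Rtkn2, 5.83% for Pdpn, 6.81% for Hopx and 8.91% for Ager. These gaps compare single arrays and carry no test. The male and the female CD109-/- sample are these same arrays, so sex and sample cannot be told apart.

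**Figure D3:**
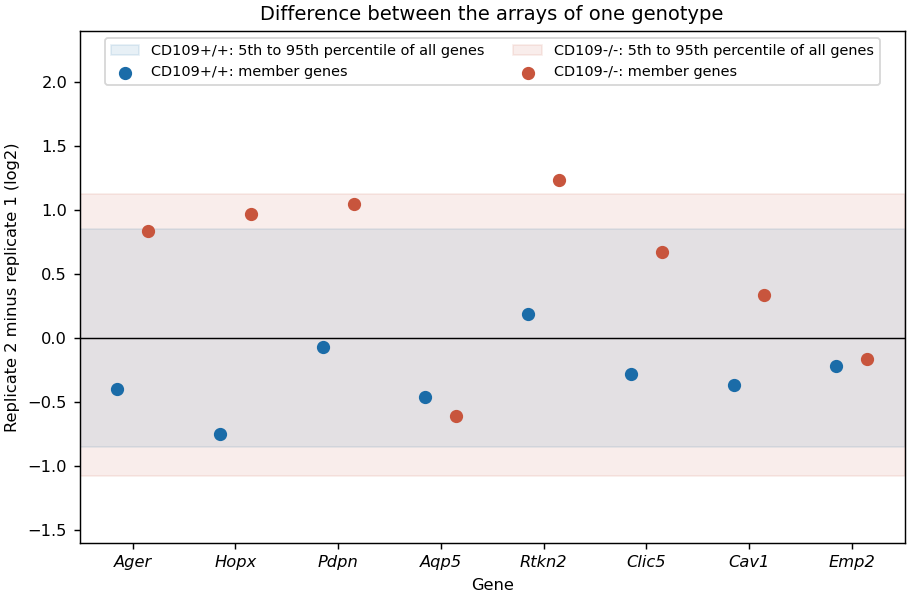
Replicate 2 minus replicate 1 (log2) within CD109+/+ (blue) and CD109-/- (red) for the 8 genes, over bands for the 5th to 95th percentile of all 16443 genes. In CD109-/- tumours 6 of the 8 points are above 0, up to 1.24 for Rtkn2, while Aqp5 and Emp2 are below it.

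CD109-/- replicate 2 was the highest of the 4 arrays for 6 of 8 genes, all but Aqp5 and Emp2, against 27.4% of all genes. Other lists shared this: the same array was highest for 9 of 12 endothelial, 4 of 5 lymphatic endothelial and 4 of 6 club cell markers. Replicate 2 exceeded replicate 1 in CD109-/- tumours for 11 of 12, 5 of 5 and 4 of 6 of these, with median gaps of 0.25, 0.69 and 0.71. Scaled to the median in place of the 75th percentile this held for 5 of 8, because CD109+/+ replicate 1 then led for Ager. The 6 of 8 with replicate 2 above replicate 1 in CD109-/- tumours held under quantile normalization, normexp and median scaling. Set against the CD109+/+ mean, CD109-/- replicate 2 stood at 1.06 for Rtkn2, 0.89 for Clic5, 0.88 for Cav1, 0.70 for Hopx, 0.54 for Pdpn, 0.24 for Ager, 0.15 for Emp2 and -0.22 for Aqp5. A fit without the male array holds only this 1 CD109-/- array, so its p-values carry no spread among CD109-/- samples. A count from it over the 8 genes restates how high this array stood and is no separate evidence on genotype. In the fit without the male array, limma's unadjusted p was under 0.05 for 3 of these, Rtkn2, Clic5 and Cav1, all higher, against 8.50% of all genes (5.46% higher). The lowest adjusted p was 0.522 among the members and 0.344 over all genes.

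Other genes known from type 1 cells were read from a wider list of 22. All were tested, 12 were higher and 10 lower in CD109-/- tumours, and the median difference was 0.05. It was -0.14 without CD109+/+ replicate 2, and 0.18 and 0.16 without CD109+/+ replicate 1 and CD109-/- replicate 1. At an unadjusted p under 0.05, 4 of 22 were higher and 0 lower (5.0% and 2.41% of all genes), and 0 passed adjustment over all genes. These 4 were Spock2, a secreted proteoglycan (1.10 ± 0.26, adjusted p = 0.535), Gramd2, a marker of type 1 cells (0.87 ± 0.24, adjusted p = 0.561), Igfbp2, an IGF-binding protein of mature type 1 cells (1.33 ± 0.37, adjusted p = 0.565), and Sema3e, a semaphorin (0.64 ± 0.24, adjusted p = 0.668), with adjusted p-values from limma. Spock2 gave log2 signals of -0.58 and -1.08 in CD109+/+ and 0.30 and 0.23 in CD109-/- tumours, and Gramd2 gave -1.57 and -1.93 against -0.90 and -0.86. These genes were named for their genotype p, so that their arrays group by genotype follows from that choice. Of all 22 genes, the genotypes did not overlap in 9, against 38.6% of all genes. In 7 of these CD109-/- was higher and in 2 lower, against 20.3% and 18.3% of all genes. Igfbp2 gave -1.67 and -0.77 against 0.24 and -0.01. A further Gramd2 probe gave 0.29 ± 0.28, with overlap. Sema3e was at 0.40 with normexp.

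Between the CD109-/- arrays, 14 of these 22 genes were higher on replicate 2, with a median gap of 0.16. The type IV collagen genes Col4a3 and Col4a4, chains of the alveolar basement membrane picked out after their values were seen, had gaps of 1.13 and 1.11, close to those of Pdpn. Krt7, a simple-epithelium keratin also chosen after its values were seen, went the other way at -1.43, and its gap between the CD109+/+ arrays was -1.45. The 22 genes therefore did not share 1 order of arrays.

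Regulators of alveolar cell fate gave 6 genes higher and 6 lower of 12, with a median of -0.03. At an unadjusted p under 0.05, 1 was higher and 1 lower (5.0% and 2.41% of all genes). Ccn2 (CTGF), a target of YAP and of TGF-beta, gave 3.82 and 3.40 in CD109+/+ and 4.37 and 4.27 in CD109-/- tumours, a difference of 0.71 ± 0.25 (limma's adjusted p = 0.638). Tead2, a DNA-binding partner of YAP, gave 0.71 and 1.07 against -0.07 and 0.24, a difference of -0.80 ± 0.26 (limma's adjusted p = 0.600), and its further probe -0.72. Nkx2-1, the lung lineage factor, gave 3.45 and 3.39 against 2.45 and 3.16, with the male CD109-/- array lowest as for Ager and Pdpn, and a difference of -0.62 ± 0.31 (limma's adjusted p = 0.735). Without that array it was -0.26, and without the female CD109-/- array it was -0.97. Yap1 and Wwtr1, which encodes TAZ, differed by 0.28 ± 0.24 and 0.24 ± 0.24.

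The lists of neighbouring alveolar states showed other orders of arrays. Of 12 type 2 cell markers 6 were higher and 6 lower, with a median difference of 0.10 and 0 at an unadjusted p under 0.05. Sftpc, the surfactant protein specific to type 2 cells, gave 9.11 and 8.96 in CD109+/+ and 8.92 and 8.79 in CD109-/- tumours, a range far narrower than that of Hopx or Rtkn2. Between the CD109-/- arrays 5 of 12 type 2 markers were higher on replicate 2, and the median gap was -0.06. Lyz2, also strong in macrophages, and Lamp3 had the largest moderated t of the list, at 1.26 ± 0.61 and 0.54 ± 0.31 (limma's adjusted p of 0.721 and 0.751).

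Genes of the keratin 8-rich transitional state differed between the CD109-/- arrays in the opposite sense to most type 1 members. Only 1 of 12, Cdkn1a, was higher on replicate 2 than on replicate 1, and the median gap was -0.79. The gap between the CD109+/+ arrays had the same sign and a median of -0.91, so this list split the arrays by number in both genotypes. Krt8 gave 7.20 and 6.25 in CD109+/+ and 6.63 and 5.96 in CD109-/- tumours, Krt19 gave 5.28 and 4.04 against 5.17 and 3.68, and the tight junction gene Cldn4 gave -0.83 and -1.42 against -0.22 and -2.59. In each, both replicates 1 were above both replicates 2, the order seen for Aqp5. By genotype this list had 6 higher and 6 lower, a median of -0.09 and 0 of 12 at an unadjusted p under 0.05. The largest moderated t values belonged to Sfn, a 14-3-3 protein of stressed epithelium (0.53 ± 0.33), and Areg, an EGFR ligand (-0.88 ± 0.57). The list's median was 0.51 without CD109-/- replicate 2 and -0.56 without replicate 1. A test between the lists was not run.

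**Figure D4:**
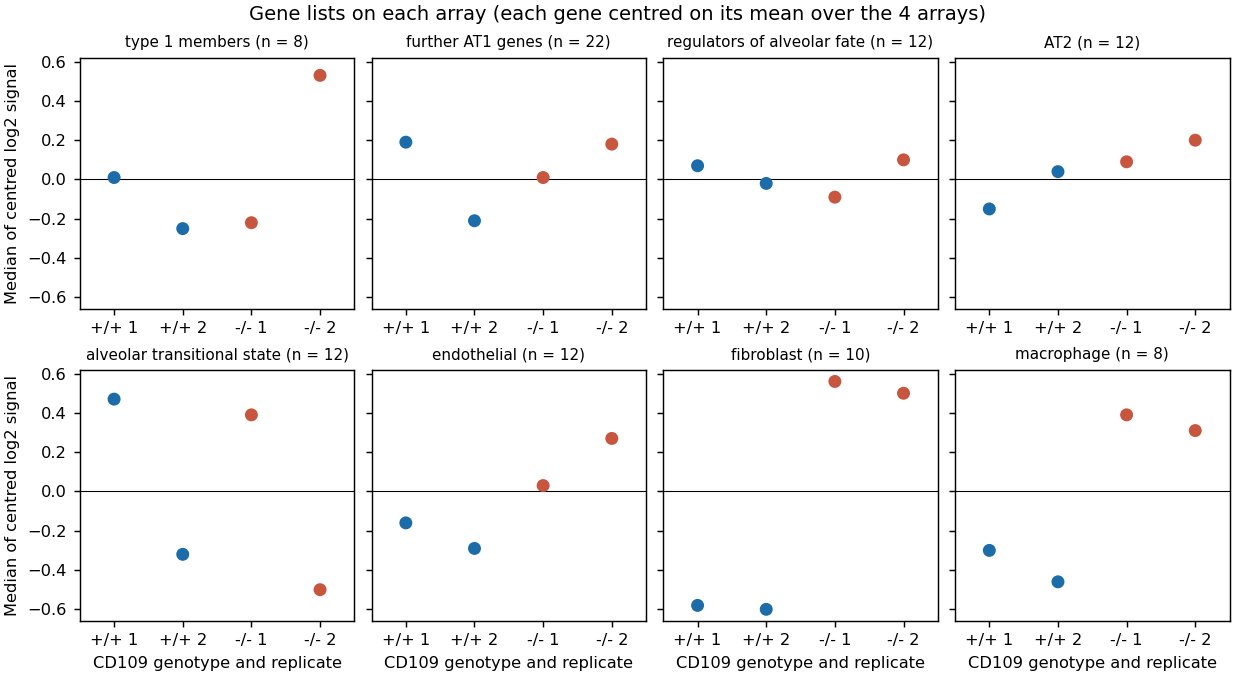
Median of the log2 signals of 8 gene lists on each array, each gene centred on its mean over the 4 arrays, with CD109+/+ in blue and CD109-/- in red. The 8 type 1 genes peak on CD109-/- replicate 2 at 0.53, where the transitional state list is lowest at -0.50. The medians of the endothelial, fibroblast and macrophage lists separate by genotype, as do the arrays for 38.6% of all single genes. The type 2 (AT2) medians do so only narrowly (0.04 on CD109+/+ replicate 2 against 0.09 on CD109-/- replicate 1). Of the type 2 genes 6 were higher and 6 lower.

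Markers of other cells that make some of the 8 genes were read beside them. At an unadjusted p under 0.05, 5.0% of all genes were higher and 2.41% lower, the shares to set beside the counts here. Endothelial markers, relevant to Cav1, were higher in CD109-/- tumours in 11 of 12 genes. Their median was 0.25, with 1 of 12 (Tek) at an unadjusted p under 0.05. Leaving out CD109+/+ replicate 2 gave an endothelial median of 0.38, and leaving out CD109-/- replicate 1 gave 0.41. Without CD109-/- replicate 2 the endothelial median was lower, at 0.20, with 8 of 12 genes higher. Sums of linear signal are given in units of the 75th percentile. The endothelial sum was 20.9 and 18.0 on the CD109+/+ and 19.7 and 23.9 on the CD109-/- arrays, and Pecam1 differed by 0.37 ± 0.23. Fibroblast markers were higher in 10 of 10, with a median of 1.07, 5 at an unadjusted p under 0.05, and summed signals of 34.6 and 32.7 against 57.4 and 55.1. Lymphatic endothelial markers, relevant to Pdpn, were higher in 4 of 5 tested genes (Flt4 was not above background on both arrays of a genotype). Their median was 1.27, and their sums, led by Ccl21a, were 2.10 and 4.28 against 4.54 and 8.31. The lower gene was Prox1, a lymphatic marker at -0.84 ± 1.29, and its further probe stood at -1.81. The Prox1 probe read here was well above background on only 1 CD109+/+ array. The 2 lymphatic markers with an unadjusted p under 0.05 were Mmrn1 at 1.45 ± 0.36 and Reln at 1.56 ± 0.53 (limma's adjusted p of 0.541 and 0.611). Reln was well above background on only 1 CD109+/+ array and was tested only because both CD109-/- arrays exceeded background. Limited to genes above background on all 4 arrays, the lymphatic median was 0.89, and 1 gene had an unadjusted limma p under 0.05. The lymphatic median was 0.58 without CD109+/+ replicate 1, 0.75 without CD109-/- replicate 2 and 0.54 with normexp. Of the 6 mesothelial markers, 4 (Wt1, Lrrn4, Upk3b and Gpm6a) were above background on 0 or 1 CD109+/+ array and were tested only because both CD109-/- arrays exceeded background. The other two, Msln and Upk1b, stood at -0.48 and 0.85, with a median of 0.18 and 0 at an unadjusted p under 0.05. Wt1, a defining mesothelial factor, was not well above background on either CD109+/+ array and was at least 3.95-fold higher in CD109-/- tumours (limma's adjusted p = 0.382). That bound sets the CD109-/- mean against the lowest signal called well above background on the CD109+/+ arrays, and it also gave Cd109 at least 2.92-fold higher in CD109+/+ tumours (limma's adjusted p = 0.299). The mesothelial sums, led by Msln, were 66.3 and 10.4 against 44.5 and 8.30. Club cell markers had 5 of 6 higher, with a median of 1.09. Their sums, led by Scgb1a1, were 89.9 and 147 against 241 and 311. Without CD109+/+ replicate 1, 3 of 6 club markers were higher, with a median of 0.23. Without CD109-/- replicate 2, 4 of 6 were higher, with a median of 0.74. Macrophage markers were higher in 8 of 8, with a median of 0.64. The macrophage sums, led by Chil3, were 206 and 127 against 197 and 235. The part of these cells in the Cav1, Clic5, Emp2 and Pdpn values was not tested.

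The partners and relatives of the members were read last. Caveola coat genes had 6 of 9 higher and a median of 0.18 (-0.03 without CD109+/+ replicate 2 and 0.33 without CD109+/+ replicate 1). Cav1 was the only 1 of them at an unadjusted p under 0.05, a level at which 5.0% of all genes were higher. Cav2 and Cavin1, which build caveolae together with Cav1, differed by -0.11 ± 0.48 and 0.01 ± 0.24. Further Cav2 probes had the opposite sign, at 0.30 and 0.13. The probe that stands for Cav2 gave 4.07 and 3.23 in CD109+/+ and 4.04 and 3.04 in CD109-/- tumours. It followed the replicate numbers and not the much fainter Cav1 signal. On the CD109+/+ arrays Cav1 averaged -2.85, against 3.65 for Cav2 and 4.57 for Cavin1. Whether the Cav1 probes report all Cav1 transcripts was not tested. Cav3, the muscle caveolin, differed by 0.67 ± 0.29 (limma's adjusted p = 0.700).

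Among aquaporins 5 of 9 were higher and 4 lower, and 0 had an unadjusted p under 0.05. The endothelial channel Aqp1 stood at 0.44 ± 0.24 and Aqp9 at 0.47 ± 0.28. Aqp3, a channel of basal airway and glandular epithelium, gave 0.57 and -1.11 in CD109+/+ and 1.51 and -2.16 in CD109-/- tumours, the same split by replicate number as Aqp5 and wider. In the CLIC family 3 of 5 were higher, with Clic4 at 0.42 ± 0.23 next to Clic5. Among EMP and PMP22 relatives Pmp22, a myelin and fibroblast membrane protein, stood at 1.01 ± 0.26 (limma's adjusted p = 0.543; further probe 0.59), whereas Emp1 and Emp3 stood at -0.13 ± 0.56 and -0.30 ± 0.66. Rtkn, the paralogue of Rtkn2, gave 4.29 and 4.46 against 3.66 and 4.72, with its lowest and highest arrays those of Rtkn2, and differed by -0.19 ± 0.41.

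RAGE ligands had 5 of 7 tested genes higher and a median of 0.85, while the receptor gene Ager stood at -0.17. The ligand median was 0.37 with 4 of 7 higher without CD109+/+ replicate 2, and 0.47 with 4 of 7 higher without CD109-/- replicate 1. S100a4 was the 1 ligand at an unadjusted p under 0.05 (0.85 ± 0.32, limma's adjusted p = 0.669), against 5.0% of all genes higher at that level. S100a9, a neutrophil calprotectin subunit, stood at 1.28 ± 0.50 (limma's adjusted p = 0.671). Lower were the nuclear ligand Hmgb1 at -0.50 ± 0.24, with 2 further probes at -0.39 each, and S100a6 at -0.12. Podoplanin partners had 5 of 7 higher and a median of 0.26. The platelet receptor gene Clec1b stood at 0.61 ± 0.37 and the membrane-actin linker Msn at 0.41 ± 0.22, and 0 of the 7 had an unadjusted p under 0.05.

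The genes whose 4 array values lay closest to the mean profile of the members were Mms19, Mdrl, Batf3, St3gal3 and Parp16, out of 15638 genes above background on all arrays. The centred mean profile of the members was 0.02 and -0.28 in CD109+/+ and -0.14 and 0.40 in CD109-/- tumours. The root mean square distance to it was 0.0127 for Mms19 and 0.0329 for Parp16, over 4 arrays. The members themselves lay from 0.155 (Clic5) to 0.420 (Aqp5) from their own mean. The named genes were picked as the closest of 15638, so their smaller distance is no result about the members. Aqp5 was thus the member least like the rest.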

How the data were processed

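Total RNA (100 ng per sample) was labelled with Cy3 and run on Agilent arrays in 1 colour, as the labels' protocols state. Per the file headers, the deposited intensity values came from Agilent Feature Extraction 12.1.0.3, and the processed signal was background-subtracted and detrended within each array. A further deposited table held the same intensity values, each column times 1 constant (1.04 to 1.21, with no rule stated in the labels). It served as an alternative.

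Here, outlier spots were left out, spots of a probe averaged, and log2 signal taken minus each array's 75th percentile. A probe was tested where a genotype had it well above background on each of its arrays, and was named through RefSeq accessions (GRCm38.p6). The probe with the highest mean stood for a gene. The genotype test was limma's (version 3.58.1, R 4.3.3; lmFit, then eBayes), two-sided, with Benjamini-Hochberg adjustment over all genes or all probes. The script was tested on simulated data. All 4 arrays lay on 1 slide.

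The members and lists were chosen with earlier results of these data known. Named were all members and, from each list, those with an unadjusted p under 0.05 (at most 4) or the 2 with the largest moderated t, a few fixed genes such as Sftpc and Nkx2-1, and the 5 genes of most alike profile. Lists of other cell types are given mainly by counts. Cdkn1a, Cldn4, Col4a3, Col4a4, Emp1, Emp3, Hmgb1, Aqp3, Krt7, Krt8, Krt19, S100a6, Upk1b, Wwtr1 and Yap1 fall outside the rule and were chosen after their values were seen. Ccl21a, Chil3, Lrrn4, Msln and Prox1 also fall outside it.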

Additional observations from a re-analysis of the deposited data

How the results depend on the processing

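No member passed an adjusted p of 0.05 with limma under any of the 14 alternatives run (lowest adjusted p = 0.452, for the replicate block). Of these, the authors' values, both filters, the mean-variance trend and the block cannot move the members' differences, and sex as a covariate repeats leaving out CD109-/- replicate 1. The members' median difference stayed between 0.21 and 0.26 under the other background corrections, normalizations, filters and gene summaries, but was 0.62 with sex as a covariate, and ranged from 0.02 to 0.62 when 1 array was left out. With sex as a covariate, Ager turned to 0.24 and Aqp5 to -0.22. With 1 array left out, 5 members changed sign: Ager ranged from -0.59 to 0.24, Hopx from -0.27 to 0.70, Pdpn from -0.51 to 0.54, Aqp5 from -0.22 to 0.39 and Rtkn2 from -0.19 to 1.06. Clic5, Cav1 and Emp2 kept their sign in each of these fits, and under normexp, quantile and median scaling all 8 did. The replicate block left the members' median at 0.22 and called 0 genes, with 1898 at an unadjusted p under 0.05 against 1219 without it. Deviations of same-numbered arrays correlated at 0.363 over genes, but 2 pairs do not show that the numbers pair the samples. With 1 array left in a genotype, its spread was taken from the other genotype. No slide block was possible on 1 slide, and normexp used median spot signals.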
